A study of Homo sapiens with 12 samples.

Results

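The replication-dependent histone genes were taken as every gene whose symbol follows the H2AC, H2BC, H3C or H4C numbering or is 1 of H1-1 to H1-6, which gave 66 genes of the 19447 measured. They comprised 6 H1, 16 H2A, 17 H2B, 13 H3 and 14 H4 genes, 55 of them on chromosome 6 and 11 on chromosome 1. Messenger RNA was sequenced in 12 libraries from 4 groups of 3. K562, a human chronic myeloid leukaemia line that carries the BCR-ABL1 fusion, was untreated or exposed to lycorine, an Amaryllidaceae alkaloid, at 6 µM (K562+L). K562/IM, an imatinib-resistant line raised from K562 by stepwise exposure to imatinib, was maintained in imatinib and taken without lycorine (K562/IM) or with lycorine at 6 µM (K562/IM+L). Each line was a single line, the exposure time before sequencing is not given in the sources used here, and nothing states that the 3 libraries of a group came from separate cultures, so the p-values measure the spread between these libraries, which may be technical.

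Replication-dependent histone genes supply the core histones H2A, H2B, H3 and H4, which wrap DNA into nucleosomes, and the linker histone H1, which binds between them. Their messengers are made chiefly in S phase. In place of a polyA tail most end just past a short stem-loop in the 3′ part of the RNA, which the stem-loop binding protein SLBP recognises. A second form that runs past the stem-loop to a polyA site is known for some of these genes, above all in cells that leave the cycle or differentiate. The libraries were made with polyA enrichment, so the levels given here are those of polyadenylated histone RNA and not of the whole histone messenger pool.

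A stem-loop was found in a GENCODE release 29 model (GRCh38) of 28 of the 66 genes, and it came in 6 forms. They are shown because they are the element that separates the 2 kinds of 3′ end. Each is written 5′ to 3′ as DNA, with the 4-base loop in capitals and the 6-base stem arms in lower case. The H2A, H2B and H3 genes shared the first form, in 15 genes, whereas the H4 genes carried a stem of their own.
first form, 15 genes including H2AC8, H2AC18, H2BC21 and H3C10: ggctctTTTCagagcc
H4C2, H4C5, H4C8 and H4C11: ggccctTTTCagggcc
H2BC4, H2BC5, H2BC7 and H3C8: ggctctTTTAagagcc
H4C9, H4C14 and H4C15: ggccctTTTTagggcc
H3C6: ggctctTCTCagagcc
H2AC11: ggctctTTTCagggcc
Of these 28 genes, 22 had a model that ran over 50 bases past the stem-loop, and 15 of those 22 held AATAAA or ATTAAA, the polyA signal, in its last 50 bases. For 32 genes the GENCODE model was the coding sequence alone, so no stem-loop could be looked for.

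Many H2A and H2B genes lie head to head and share 1 stretch of promoter. There were 11 such pairs, with RefSeq starts (GRCh38.p14) between 193 and 247 bases apart. The whole stretch between the starts is shown for 3 pairs described among the results, together with the 150 bases before the starts of H1-2 and H4C8, which are the leading H1 and H4 genes of the results. Capitals mark TATAAA, the TATA box, CCAAT, the box bound by NF-Y, and ATTTGCAT, the octamer bound by Oct-1 (POU2F1), each on either strand, and runs that overlap are joined.
H2AC8/H2BC8, chr6:26216689-26216920, plus strand: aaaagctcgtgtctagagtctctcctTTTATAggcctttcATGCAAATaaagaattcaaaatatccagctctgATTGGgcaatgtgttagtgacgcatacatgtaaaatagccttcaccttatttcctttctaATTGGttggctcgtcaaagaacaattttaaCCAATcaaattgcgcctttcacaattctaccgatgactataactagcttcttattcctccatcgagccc
H2AC11/H2BC11, chr6:27132796-27133042, plus strand: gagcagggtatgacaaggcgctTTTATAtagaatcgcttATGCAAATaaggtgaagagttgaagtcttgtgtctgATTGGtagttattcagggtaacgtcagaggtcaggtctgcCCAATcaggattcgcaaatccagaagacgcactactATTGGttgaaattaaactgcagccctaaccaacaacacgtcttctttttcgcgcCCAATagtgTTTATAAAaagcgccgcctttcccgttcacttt
H2AC12/H2BC12, chr6:27146859-27147105, plus strand: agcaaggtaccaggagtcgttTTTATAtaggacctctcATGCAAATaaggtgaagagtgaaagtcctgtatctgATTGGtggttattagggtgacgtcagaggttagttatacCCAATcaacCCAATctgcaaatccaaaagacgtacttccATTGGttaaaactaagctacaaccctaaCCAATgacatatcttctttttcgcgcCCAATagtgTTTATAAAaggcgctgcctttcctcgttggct
H1-2, chr6:26056471-26056620, minus strand: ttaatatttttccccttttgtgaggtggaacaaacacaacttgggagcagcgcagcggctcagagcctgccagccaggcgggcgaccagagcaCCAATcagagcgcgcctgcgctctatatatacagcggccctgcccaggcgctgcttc
H4C8, chr6:26285535-26285684, minus strand: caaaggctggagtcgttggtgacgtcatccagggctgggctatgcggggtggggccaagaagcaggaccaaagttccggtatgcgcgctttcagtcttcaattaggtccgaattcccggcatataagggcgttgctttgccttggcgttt
In each pair shown the H2A gene starts at the right end and the H2B gene at the left end, running leftward. RefSeq promoter windows of 250 bases before to 50 after the start were at hand for 61 of the 66 genes. A histone gene counted if any of its windows matched, whereas the background counted each window, so the units differ. The octamer was found for 73.3% of the 15 H2A and 82.4% of the 17 H2B genes. None of the 6 H1 or 12 H4 genes had it, against 1.77% of all 35116 promoter windows. CCAAT was found for all H1, H2A, H2B and H3 genes and for 25% of the H4 genes, against 34.6% of all windows. TATAAA was found for 68.9% of the 61 genes, against 11.5% of all windows. These matches are of letters, not of bound sites.

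The libraries held between 75093844 and 107344598 estimated counts each, and the histone genes took between 0.168% and 0.245% of them. All 4 groups carried the erythroid genes typical of K562, but their summed level stood far apart in the libraries labelled K562/IM+L, at 40500 to 57900 CPM (counts scaled to library size) against 6520 to 9430 CPM in K562 and 2960 to 3140 CPM in K562/IM. The 4 fibroblast genes listed (COL1A1, COL1A2, COL3A1 and DCN) summed to 19.6 to 24.7 CPM in K562/IM and to at most 1.34 CPM in every other library. The 5 megakaryocyte genes summed to 182 to 199 CPM in K562/IM, 20.7 to 21.9 in those labelled K562/IM+L and at most 7.52 in K562 and K562+L, and the 3 T cell genes to 21.4 to 23.1 CPM in K562/IM and at most 2.82 elsewhere. The 3 B cell genes summed to 1.97 to 2.6 CPM in K562/IM and at most 1.22 elsewhere. ABCB1, a drug efflux pump, had mean levels of 1.76 CPM in K562, 4.28 in K562+L, 23.6 in K562/IM and 0.752 in those labelled K562/IM+L. The labels and the study's plots also number this last group differently. The group is therefore called by its label and is compared both with K562/IM and with K562, and the part of these differences in the histone results was not tested.

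Transcript level was very uneven among the histone genes. Over the 12 libraries 18 genes had a mean of 10 CPM or more, 19 lay between 1 and 10 CPM and 29 were under 1 CPM, and 53 were above 0 in every library. Divided by coding length, H2BC12 had a mean level of 1950 CPM per kb, H1-2 had 950, H2BC21 had 283, H2AC6 had 169 and H2AC18 had 141. H2BC12 alone made up 37.5% of all histone CPM and H1-2 30.9%, and the leading 12 genes made up 91%. The H2B class held the most and the H4 class the least, with class sums in K562 of 1030 ± 110 CPM for H2B, 648 ± 105 for H1, 145 ± 16.9 for H2A, 66.2 ± 6.21 for H3 and 37.1 ± 1.3 for H4 (SD, n = 3). The order of these classes is that of polyadenylated RNA only, and in bulk libraries fewer cells with histone RNA and less RNA per cell cannot be told apart.

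The level went with the annotated length of the gene model. The 23 genes with a RefSeq span or a GENCODE exonic length over 1000 bases, a limit set after the models were seen, had a median level of 11 CPM (29 CPM per kb of coding sequence). The other 43 genes had a median of 0.728 CPM (1.89 CPM per kb). Levels of 10 CPM or more were reached by 12 of the 23 long genes and 6 of the 43 others. H1-2 was the chief exception, a gene of 731 bases at chr6:26055740-26056470 with no long model and a mean of 607 CPM. The part of model length in the counts of a gene was not tested.

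**Figure D1:**
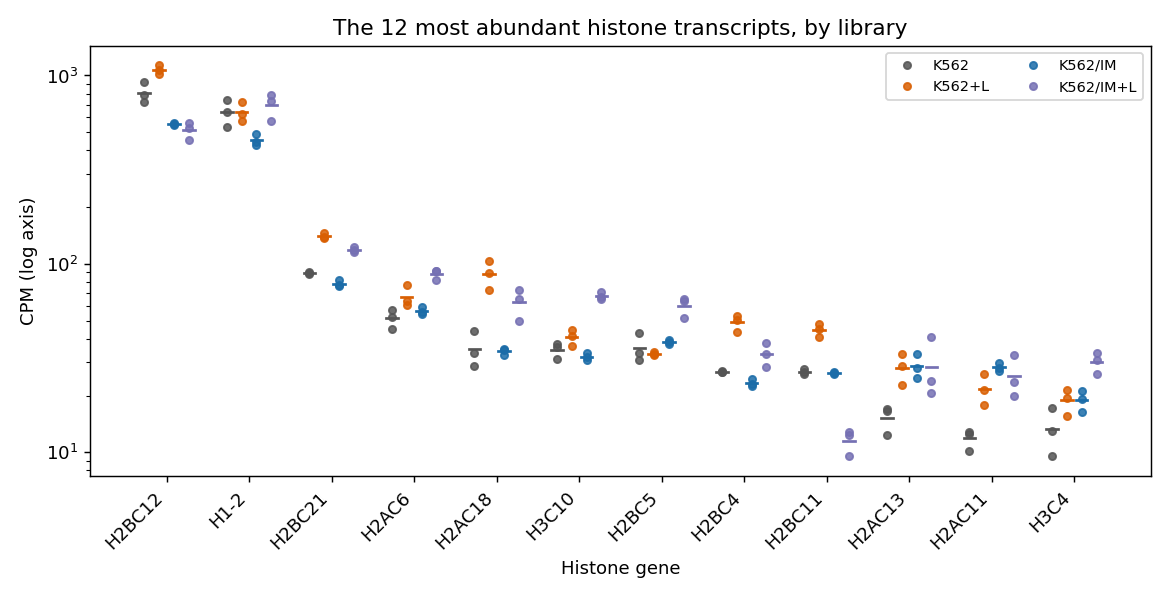
Level in CPM (log axis) of the 12 histone genes with the highest mean, in each of the 12 libraries. Points are libraries coloured by group and short bars are group means of 3. H2BC12 and H1-2 stood at 427 CPM or more in every library and all others at 145 CPM or less.

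Lycorine in K562 was compared first, K562+L against K562, and the changes that passed were nearly all rises. By the quasi-likelihood test of edgeR, with p adjusted by Benjamini-Hochberg over all 12927 genes tested, 14 of the 51 histone genes tested rose at an adjusted p under 0.05, against 18.2% of all genes, and 2 fell, against 19% of all genes. H2AC18 and H4C8 also passed a log2 fold change of 1, a threshold passed upward by 2.38% of all genes. No histone gene passed it downward, against 4.01% of all genes, and the 2 calls became 4 without K562+L replicate 2. The median log2 fold change was 0.23 over the histone genes and 0.00 over all genes. By class 7 of 13 H2B, 3 of 13 H2A, 2 of 11 H4, 1 of 5 H1 and 1 of 9 H3 genes rose, and the genes that fell were H2BC9 and H4C9. Of the 8 genes tested on chromosome 1, 5 rose, with a median of 0.85 in log2 fold change, against 9 of the 43 on chromosome 6, with a median of 0.06. These medians were 0.42 and 0.37 in K562/IM against K562, and 0.30 and 0.27 in K562/IM+L against K562/IM. In K562/IM+L against K562 they were 0.49 and 0.76. By model length, 10 of 20 genes with a long model rose in K562+L, against 4 of the 31 others. Among the chromosome 1 genes that rose, H2AC18, H3C14 and H4C14 each have a copy of identical coding sequence. The part of chromosome, model length or copies in these rises was not tested.

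H2AC18, an H2A gene at chr1:149842218-149842750 in the smaller histone cluster, showed the largest called rise. It read 28.6, 43.9 and 33.6 CPM in K562 and 103, 89.1 and 72.3 CPM in K562+L. Every treated library was above every untreated one. Its log2 fold change was 1.32 ± 0.184 (SE) with an adjusted p of 0.00184 (edgeR). The coding sequences of H2AC18 and H2AC19 are identical, and with H2AC19 listed at a mean of 0.023 CPM the share of each gene in these reads is uncertain. H4C8, an H4 gene, read 8.54, 8.94 and 7.43 CPM in K562 and 20.5, 16.8 and 18.5 CPM in K562+L, again with no overlap. Its log2 fold change was 1.16 ± 0.121 with an adjusted p of 0.000602 (edgeR).

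Most of the abundant H2B genes rose by less than this threshold. H2BC12, the most abundant, read 719, 785 and 922 CPM in K562 and 1070, 1130 and 1020 CPM in K562+L, a log2 fold change of 0.41 ± 0.102 (adjusted p = 0.0166, edgeR). H2BC21 read 88.4, 90.6 and 88.9 CPM against 137, 145 and 139 CPM, a change of 0.65 ± 0.0765 (adjusted p = 0.000964, edgeR). H2BC4 rose from 26.8, 27 and 26.6 CPM to 52.9, 43.3 and 50.6 CPM, by 0.87 ± 0.0993 on the log2 scale (adjusted p = 0.000847, edgeR). In these 3 genes the treated libraries were all above the untreated ones. H2BC11 rose by 0.74 ± 0.0924, H2AC13 by 0.88 ± 0.173 and H2AC11 by 0.87 ± 0.159 on the log2 scale, with adjusted p of 0.00122, 0.00682 and 0.00519 (edgeR). H1-2, the main linker histone gene here, read 533, 639 and 743 CPM in K562 and 621, 722 and 573 CPM in K562+L. Its groups overlapped and its log2 fold change was 0.00 ± 0.135 (adjusted p = 0.996, edgeR). H2AC6, H3C10, H2BC5 and H3C4 had log2 fold changes of 0.37, 0.23, -0.11 and 0.51 and did not pass.

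The resistant line was compared next, K562/IM against K562, and here the 2 most abundant histone genes, H2BC12 and H1-2, fell. Resistance, exposure to imatinib and other differences between the lines cannot be told apart in this comparison. Of 53 histone genes tested 17 rose at an adjusted p under 0.05, a share of 32.1% against 30.1% of all 13406 genes, and 6 fell, against 27.1%. H2AC11, H2AC12, H2BC6 and H4C8 rose past a log2 fold change of 1, against 13.9% of all genes, and none fell past it, against 5.29%. The median log2 fold change was 0.37 over the histone genes and 0.04 over all genes. The genes that fell were H2BC12, H1-2, H1-4, H2AC8, H2BC4 and H2BC21, and the genes that rose included 5 of 11 H4 genes and 6 of 14 H2B genes. The summed level of all histone genes was 1920 ± 221 CPM in K562 and 1550 ± 19.9 CPM in K562/IM (SD, n = 3).

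H2BC12 read 560, 544 and 555 CPM in K562/IM, each below the lowest K562 library at 719 CPM. Its log2 fold change was -0.55 ± 0.0946 (adjusted p = 0.00178, edgeR). H1-2 read 427, 489 and 442 CPM, all below the lowest K562 library at 533 CPM, with a log2 fold change of -0.50 ± 0.122 (adjusted p = 0.00937, edgeR). These 2 genes made up most of the H1 and H2B class sums, which for H1 were 648 CPM in K562 and 461 CPM in K562/IM and for H2B were 1030 and 782 CPM. In the opposite direction H2AC11 read 12.5, 12.8 and 10.2 CPM in K562 and 28.1, 26.9 and 29.9 CPM in K562/IM, with no overlap. Its log2 fold change was 1.26 ± 0.11 (adjusted p = 6.59e-05, edgeR). H4C8 read 17.5, 17.8 and 20.8 CPM in the resistant line, about the level seen with lycorine in K562, which gave a log2 fold change of 1.17 ± 0.116 from K562 (adjusted p = 0.00012, edgeR). H2BC6 read 0.135, 0.31 and 0.18 CPM in K562 and 0.575, 0.729 and 0.709 CPM in the resistant line, a log2 fold change of 1.68 ± 0.423 (adjusted p = 0.0105, edgeR). H2AC12 read 0.442, 0.405 and 0.54 CPM against 1.29, 0.739 and 1.07 CPM, a log2 fold change of 1.16 ± 0.323 (adjusted p = 0.0163, edgeR), which did not pass without K562/IM replicate 1 or replicate 3 (adjusted p = 0.0817 and 0.0573, edgeR). Both genes were without overlap between groups but scarce, at 11 to 42 estimated counts per library in K562.

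**Figure D2:**
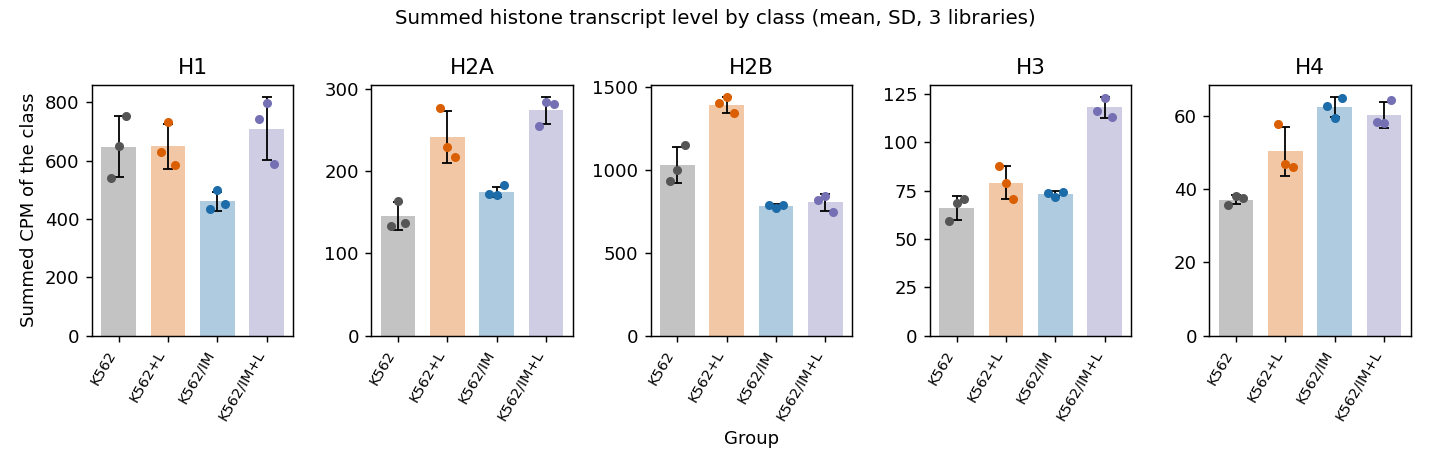
Summed level in CPM of each histone class in the 4 groups, with bars for the mean of 3 libraries, whiskers for the SD and points for libraries. The vertical scale differs between panels. H2B was highest in K562+L (1390 ± 49.9 CPM) and H3 was highest in the libraries labelled K562/IM+L (118 ± 5.49 CPM).

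In the resistant line with lycorine as labelled, K562/IM+L against K562/IM, H2AC8, H2AC17 and H3C10 rose most clearly and H2BC11 fell. Of 53 histone genes tested 18 rose, a share of 34% against 33.2% of all 13727 genes, and 5 fell, against 33.6% of all genes. Past a log2 fold change of 1 there were 6 rises, against 14.7% of all genes, and 2 falls, against 13.8%. The split was 6 rises and 1 fall with RLE or upper-quartile scaling. The 8 calls became 5 with counts divided by 4, with a replicate block, or without K562/IM replicate 3 or K562/IM+L replicate 1, and 12 without K562/IM+L replicate 3. The median log2 fold change was 0.27 over the histone genes and -0.01 over all genes. By class 7 of 14 H2A, 4 of 14 H2B, 3 of 9 H3, 2 of 6 H1 and 2 of 10 H4 genes rose. The genes that fell were H2BC9, H2BC11, H4C8, H4C9 and H1-3. The histone sum was 1550 ± 19.9 CPM without and 1960 ± 157 CPM with lycorine (SD, n = 3).

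H2AC8, an H2A gene at chr6:26216921-26217437, read 9.33, 8.98 and 8.76 CPM in K562/IM and 35.4, 42.9 and 27.2 CPM in the libraries labelled K562/IM+L. Its log2 fold change was 1.99 ± 0.162 (adjusted p = 3.34e-05, edgeR). H2AC17 read 5.08, 5.89 and 4.76 CPM against 15.4, 18.5 and 16.4 CPM, a log2 fold change of 1.71 ± 0.126 (adjusted p = 2.07e-05, edgeR). H3C10, the leading H3 gene, read 30.8, 33.6 and 32.2 CPM against 66.7, 71 and 64.9 CPM, a log2 fold change of 1.10 ± 0.0706 (adjusted p = 1.1e-05, edgeR). For these 3 genes each labelled lycorine library was above every K562/IM library. H1-2 rose from the K562/IM levels given above to 733, 790 and 576 CPM, by 0.65 ± 0.12 on the log2 scale (adjusted p = 0.00207, edgeR). H2AC18, H2AC6, H2BC5 and H2BC21 also rose, by 0.89, 0.68, 0.66 and 0.62 on the log2 scale. H2AC20 was also called, at 1.14 ± 0.401 on the log2 scale. It was scarce, at 0.311, 0.385 and 0.299 CPM in K562/IM and 0.616, 1.05 and 0.499 CPM in the labelled libraries. H2AC20 was not among the named genes, so its call was not followed under the alternatives. The other called rises were H2AC4 and H3C1, at log2 fold changes of 1.65 ± 0.453 and 1.32 ± 0.397 (adjusted p = 0.0136 and 0.02, edgeR). H2AC4 and H3C1 stayed under 1 CPM in every library. H2AC4 lost its call with all 12 libraries in the fit, with a replicate block and without K562/IM+L replicate 1 (adjusted p = 0.196, 0.064 and 0.0657, edgeR), and H3C1 lost its call under 5 alternatives (adjusted p = 0.0561 to 0.0812, edgeR).

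The clearest fall was in H2BC11, an H2B gene at chr6:27132316-27132795. It read 26.7, 25.9 and 26.4 CPM in K562/IM and 12.8, 9.5 and 12.3 CPM in the libraries labelled K562/IM+L, with no overlap. Its log2 fold change was -1.17 ± 0.124 (adjusted p = 0.000127, edgeR). H4C8 read 8.82, 7.55 and 11.1 CPM in the labelled libraries, lower than each K562/IM library and overlapping the K562 range of 7.43 to 8.94 CPM. Its log2 fold change was -1.0 ± 0.16 (adjusted p = 0.00102, edgeR), at the fold threshold itself, and it read -0.92 without K562/IM replicate 3 and -0.97 and -0.88 without K562/IM+L replicate 1 or 2. H2BC12 read 525, 558 and 454 CPM and overlapped K562/IM, with a log2 fold change of -0.08 ± 0.0843 (adjusted p = 0.404, edgeR).

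Against untreated K562 the libraries labelled K562/IM+L had 23 of 53 histone genes higher, against 28.2% of all 13307 genes, and 3 lower, against 27.8%. Past a log2 fold change of 1 there were 8 higher, against 14.9%, and 2 lower, against 8.91%. These 10 calls became 16 with upper-quartile scaling and 6 without K562/IM+L replicate 3. The median was 0.72 over the histone genes and 0.02 over all genes. The 8 were H2AC8, H2AC11, H2AC15, H2AC17, H2BC6, H2BC7, H2BC15 and H3C4, and the 2 were H2BC11 and H4C7. H2AC17 stood at 1.68 ± 0.136 in log2 fold change (adjusted p = 6.88e-05, edgeR) and H2BC11 at -1.24 ± 0.129 (adjusted p = 0.000215, edgeR). H2BC15 read 8.08, 6.2 and 6.86 CPM in K562 and 13.9, 14.1 and 15.7 CPM in the labelled libraries, a log2 fold change of 1.03 ± 0.136 (adjusted p = 0.000652, edgeR). H4C7 rested on few reads, with 13 to 19 estimated counts in K562 libraries and 2 to 6 in the labelled ones, and its call was lost under 9 alternatives, among them the omission of any 1 of the 6 libraries. H2BC12 was lower than in K562, by -0.68 ± 0.129 in log2 fold change (adjusted p = 0.00359, edgeR). This comparison shares its libraries with the others, so its counts are not separate evidence.

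**Figure D3:**
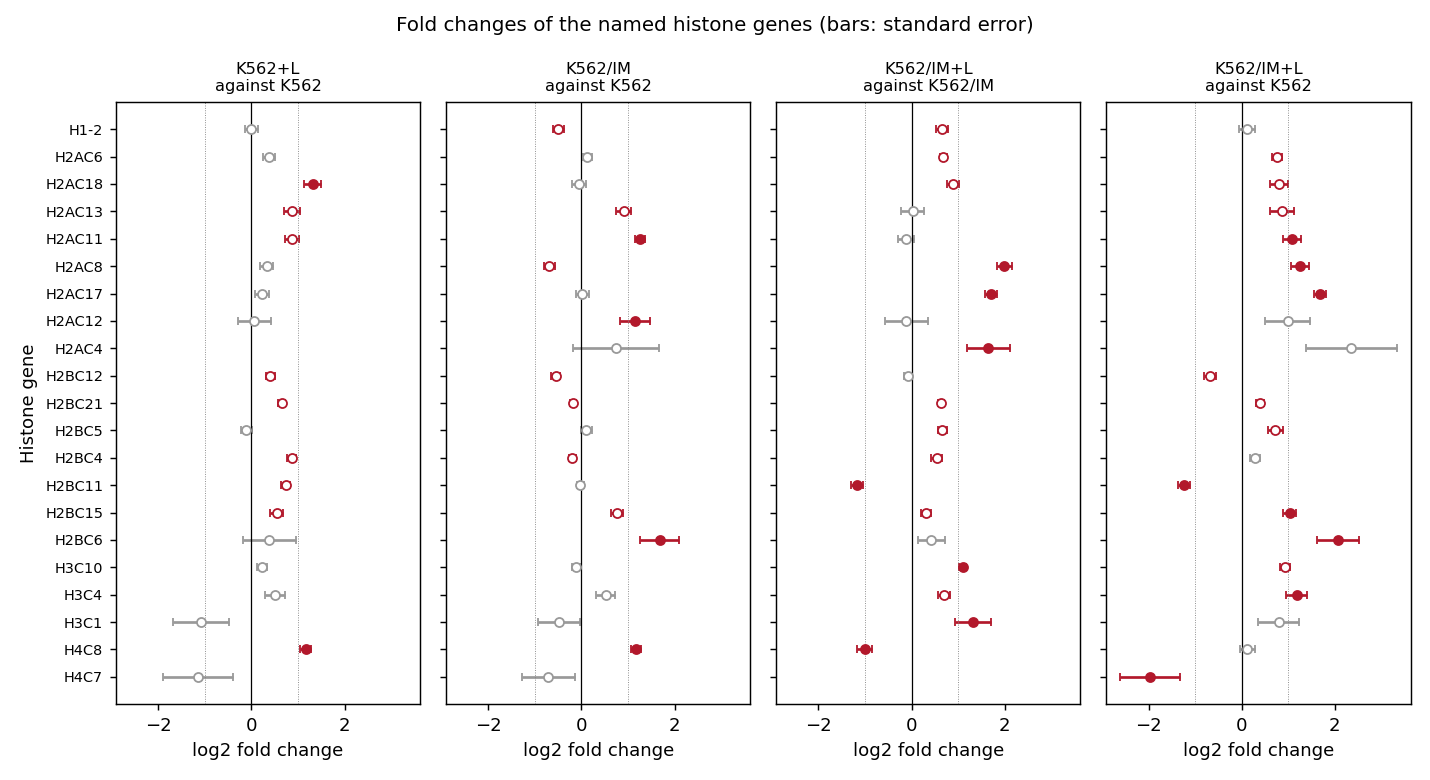
Log2 fold change of the 21 named histone genes in the 4 comparisons, with bars for the standard error and dotted lines at 1 and -1. Red points passed an adjusted p under 0.05, filled red points also passed the fold threshold and grey points did not pass. H2BC11 and H4C8 changed sides between the panels of lycorine in K562 and in K562/IM as labelled.

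A difference in the lycorine response of the lines was tested directly with the interaction term over all 12 libraries, (K562/IM+L minus K562/IM) minus (K562+L minus K562). Of 55 histone genes tested 8 had a higher effect in K562/IM as labelled, against 29.9% of all 13995 genes, and 10 a lower one, against 31.7%. With upper-quartile scaling, which moved the median of all genes by 0.13 on the log2 scale, the split was 10 higher and 5 lower. The 18 became 11 without K562/IM replicate 1 or replicate 3. Taken either way, 32.7% of the histone genes differed, against 61.7% of all genes. H4C8 had the largest negative difference of the 55, -2.19 ± 0.204 on the log2 scale (adjusted p = 2.96e-06, edgeR), since it rose in K562 and fell in K562/IM. H2BC11 behaved alike, with a difference of -1.93 ± 0.149 (adjusted p = 7.02e-07, edgeR). H2BC12 differed by -0.51 ± 0.138 (adjusted p = 0.00656, edgeR) and H1-2 by 0.63 ± 0.199 (adjusted p = 0.0159, edgeR), so that the 2 most abundant genes differed in opposite directions. Without K562/IM+L replicate 2 the difference of H1-2 was 0.50 and did not pass (adjusted p = 0.0507, edgeR). H2AC8 differed by 1.64 ± 0.231 and H2AC17 by 1.45 ± 0.189 (adjusted p = 7.9e-05 and 4.38e-05, edgeR). H2BC21, which rose by 0.65 and 0.62 in the 2 lines, had a difference of -0.05 ± 0.0843 (adjusted p = 0.642, edgeR).

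The genes of a divergent pair share a promoter stretch, and their levels and fold changes are given side by side. H2BC12 had a mean over the groups between 512 and 1070 CPM and its partner H2AC12 between 0.463 and 1.04 CPM. In K562/IM against K562 H2AC12 rose by 1.16 ± 0.323 on the log2 scale while H2BC12 stood at -0.55 ± 0.0946. In the same comparison H2AC11 rose by 1.26 ± 0.11 and H2BC11 stood at -0.02 ± 0.0717, and with lycorine in K562/IM as labelled H2BC11 stood at -1.17 ± 0.124 and H2AC11 at -0.13 ± 0.175. H2AC8 rose by 1.99 ± 0.162 with lycorine in K562/IM as labelled and H2BC8 read 0.22 ± 0.102 there (adjusted p = 0.0856, edgeR). By sign alone, whether or not the genes passed, 1 of 9 pairs with both genes tested had opposite signs in K562+L against K562, 5 of 9 in K562/IM against K562, 2 of 9 in K562/IM+L against K562/IM and 3 of 10 in K562/IM+L against K562. Both genes passed with opposite signs in 1 pair in K562/IM against K562, H2AC12 and H2BC12, and in 1 pair in K562/IM+L against K562, H2AC11 and H2BC11. The difference within a pair was not tested.

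**Figure D4:**
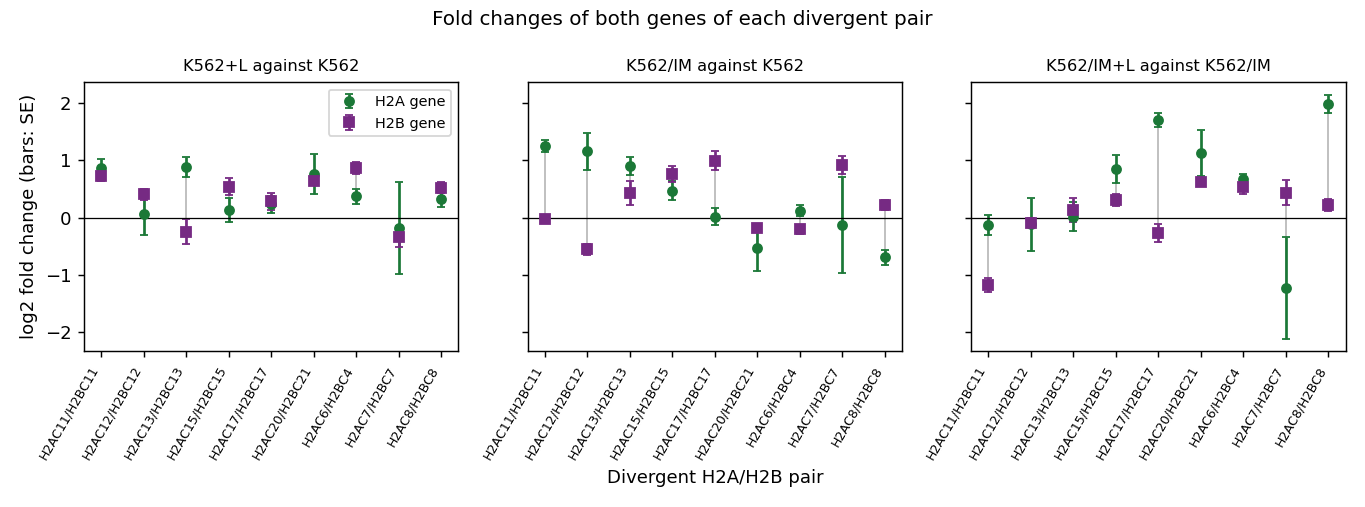
Log2 fold change of the H2A gene (green circles) and the H2B gene (purple squares) of each divergent pair in 3 comparisons, with bars for the standard error and a grey line joining the partners. In K562/IM+L against K562/IM the partners H2AC8 and H2BC8 stood at 1.99 and 0.22.

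Some members overlap one another, and their values are uncertain for that reason. Gene spans of 14 members overlapped in 8 pairs, 4 by RefSeq and 5 by GENCODE spans. H3C4, an H3 gene whose RefSeq span covers H2AC7 on the same strand over 510 bases, read 9.53, 12.9 and 17.2 CPM in K562, 21.5, 19.4 and 15.6 CPM in K562+L, 19.1, 16.4 and 21.2 CPM in K562/IM and 30.9, 33.8 and 26.1 CPM in the libraries labelled K562/IM+L. H2AC7 read 5.76, 4.66 and 0.245 CPM in K562 and 0.302, 0.321 and 3.43 CPM in the labelled libraries, so that in both groups H3C4 was higher in the libraries where H2AC7 was near 0. The sum of both ran from 15.3 to 17.6 CPM in K562, 20 to 24.3 in K562+L, 21.3 to 23.6 in K562/IM and 29.5 to 34.1 in the labelled group, with no overlap between K562 and the labelled group. H3C4 alone was higher in the labelled group than in K562 by 1.18 ± 0.221 on the log2 scale (adjusted p = 0.00333, edgeR). The RefSeq span of H2BC12 covers H4C9 over 397 bases on the opposite strand. H4C9 had log2 fold changes of -0.64 ± 0.15 in K562+L and 0.91 ± 0.103 in K562/IM against K562 (adjusted p = 0.013 and 0.00022, edgeR), of the opposite sign to H2BC12. In K562/IM+L against K562/IM it stood at -0.38 ± 0.0949 (adjusted p = 0.0092, edgeR), where H2BC12 stood at -0.08, and against K562 at 0.49, where H2BC12 stood at -0.68. By GENCODE spans H2AC17 shares 350 bases with H3C12 on the same strand, and H3C12 was at or below 1.19 CPM in every library. The GENCODE span of H2BC15 covers H2AC16 on the same strand and H2AC15 on the other. Whether the counting used strand is not given in the sources used here.

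**Figure D5:**
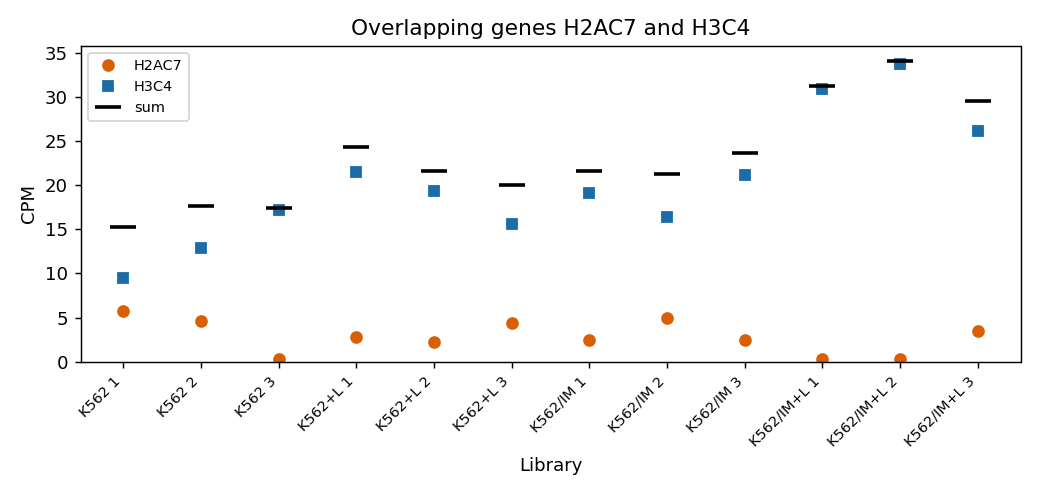
Level in CPM of H2AC7 (circles), H3C4 (squares) and their sum (bars) in each of the 12 libraries. H2AC7 swings between libraries of 1 group while the sum stays between 15.3 and 17.6 CPM in K562.

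The genes that make and process histone messengers were followed from a list of 36, all tested. In K562+L against K562 13 rose and 2 fell, in K562/IM against K562 8 rose and 9 fell, in K562/IM+L against K562/IM 9 rose and 20 fell, and against K562 5 rose and 19 fell, with medians in log2 fold change of 0.23, 0.02, -0.33 and -0.33. In the same order 18.2%, 30.1%, 33.2% and 28.2% of all genes rose, and 19%, 27.1%, 33.6% and 27.8% fell. SLBP, the stem-loop binding protein, read 136, 141 and 127 CPM in K562/IM and 85.5, 80.8 and 77.5 CPM in the libraries labelled K562/IM+L, a log2 fold change of -0.70 ± 0.0713 (adjusted p = 0.000102, edgeR). In K562 with lycorine SLBP read -0.04 ± 0.084 (adjusted p = 0.705, edgeR). ERI1, the 3′ exonuclease that trims histone messengers, fell from 94.7, 101 and 90 CPM to 33.8, 32.4 and 35.1 CPM, by 1.47 on the log2 scale. NPAT, the histone gene transcription factor of the histone locus body, stood at -1.15 ± 0.287 in log2 fold change (adjusted p = 0.00876, edgeR), with values of 34.1, 20.2 and 50 CPM in the labelled libraries. CASP8AP2 (FLASH) stood at -0.78 and ZNF473, a protein of the U7 particle complex, at -0.51, and both passed. LSM10 and LSM11, the U7-specific Lsm proteins, stood at -0.23 and 0.28 and did not pass. LSM11 rose in K562+L, by 0.83 ± 0.144 (adjusted p = 0.00426, edgeR). CSTF2T, a cleavage stimulation factor, stood at -1.35 in K562/IM against K562 and at 1.25 in K562/IM+L against K562/IM, and both passed. CCNE2, which encodes cyclin E2, and NCBP1, of the cap-binding complex, stood at -1.35 and -1.22 in K562/IM+L against K562 and passed.

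The S-phase and G2/M lists stood apart from the histone genes in the labelled libraries. Of 30 S-phase genes 12 rose and 1 fell in K562+L, 1 rose and 15 fell in K562/IM against K562, 4 rose and 23 fell in K562/IM+L against K562/IM, and none rose and 26 fell against K562. The shares of all genes given for the processing list are the background here and for the G2/M list. The medians in log2 fold change were 0.21, -0.24, -0.62 and -0.87. The summed level of these 30 genes ran from 6230 to 6720 CPM in K562, 7330 to 7670 in K562+L, 5280 to 5520 in K562/IM and 3870 to 3950 in the labelled libraries. The histone sum over the same libraries ran from 1700 to 2150, 2260 to 2530, 1530 to 1570 and 1800 to 2110 CPM. Both sums were thus highest in K562+L, but the S-phase sum was lowest in the labelled libraries and the histone sum was lowest in K562/IM. Among the named genes PCNA, the replication clamp, stood at -0.51 in K562/IM+L against K562/IM, MCM3 of the replicative helicase at -1.16, UHRF1 at -1.11 and GINS2 at 0.26, and all passed. Of 26 G2/M genes 8 rose and 1 fell in K562+L, 2 rose and 8 fell in K562/IM, 4 rose and 13 fell in K562/IM+L against K562/IM, and 1 rose and 15 fell against K562. KIF11, CDK1 and CCNA2 stood at -1.13, -0.78 and -0.56 in K562/IM+L against K562/IM and passed. MKI67 stood at -0.46 and did not (adjusted p = 0.0563, edgeR), whereas it rose in K562+L by 0.69 ± 0.176 (adjusted p = 0.0178, edgeR). RRM2 of ribonucleotide reductase fell by 1.32 in K562/IM+L against K562.

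Replication-independent histone variants and histone chaperones were followed from lists as well. Variants such as H3.3 are also made outside S phase, from ordinary polyadenylated messengers. The variant list also holds H2AW, H2BU1 and H2AX, histone genes outside the symbol rule used here. Whether these are independent of replication was not tested. The counts of this list include them and should not be read as counts of replication-independent genes alone. Of 17 variants listed 11 or 12 were tested, and 2 rose and 3 fell in K562+L, 1 rose and 3 fell in K562/IM, 4 rose and 2 fell in K562/IM+L against K562/IM and 5 rose and 3 fell against K562. Among all genes 18.2% rose and 19% fell in K562+L, and 30.1% and 27.1% in K562/IM. The shares were 33.2% and 33.6% in K562/IM+L against K562/IM, and 28.2% and 27.8% against K562. No difference of the variants or chaperones from these shares was tested. H3-3A, which encodes the variant H3.3, read 391, 434 and 360 CPM in K562/IM and 964, 979 and 769 CPM in the libraries labelled K562/IM+L, a log2 fold change of 1.22 ± 0.114 (adjusted p = 6.53e-05, edgeR). In K562+L it fell by 0.59 on the log2 scale. H3-3B, the other H3.3 gene, stood at -0.09 and 0.10 in these comparisons and did not pass. H2AW rose from 26.2, 26.1 and 27.2 CPM to 89, 108 and 80 CPM, by 1.82 ± 0.114 (adjusted p = 9.24e-06, edgeR). H1-10, a linker variant, rose by 0.85 in the labelled libraries against K562/IM. H2BU1 rose by 1.09 in K562/IM+L against K562, to at most 1.34 CPM. H2AX passed in no comparison, and H2AZ1 stood at -0.65 in K562+L, -0.61 in K562/IM against K562 and -0.30 in K562/IM+L against K562/IM, all of which passed. Of 27 histone chaperones 7 rose and 2 fell in K562+L, 1 rose and 14 fell in K562/IM, 6 rose and 11 fell in K562/IM+L against K562/IM and 1 rose and 14 fell against K562. The importin IPO4 and the FACT subunit SUPT16H stood at -1.37 and -1.14 in K562/IM+L against K562/IM, the H2A.Z chaperone ANP32E at -1.15 against K562, and ATRX at 1.05 in K562+L.

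The genes outside the set whose level followed the histone sum most closely over the 12 libraries were PSMF1, CENPT, LCAT, PRPF6 and BAIAP2, with Pearson r of 0.979, 0.977, 0.976, 0.971 and 0.968 among 13940 genes. These values are a description only, since the points share 4 groups of libraries and these 5 were the highest of all genes.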

How the data were processed

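RNA from 12 cell line libraries was enriched for polyA. The authors deposited estimated counts per gene, and the submitters' processing notes name FastQC, STAR, StringTie, DESeq2 and hg38. Versions, annotation and strand setting are not given in the sources used here. Low counts often lay at multiples of 4 or 1 above (67.9% of 23289 low values). Such numbers make up 52% of the whole numbers in the same range, a rate that holds only for evenly spread values. Hence 1 fragment may count as several, which was not tested. Groups followed the labels. The deposited values were scaled by TMM to CPM and tested with edgeR 4.0.16 (R 4.3.3) by the quasi-likelihood test, with filterByExpr at a minimum count of 10 and Benjamini-Hochberg adjustment over all genes tested. Genes were called at an adjusted p below 0.05 with a log2 fold change beyond 1 in either direction. The SE was the log2 fold change divided by the square root of F. The design had assumed whole counts. In data simulated for K562+L against K562 with log2 changes of 2, 197 of 200 changed genes were recovered with 1 false call among 12831 genes, and for the interaction 191 of 200 with 6 false calls among 13699. The simulated spread was the same for every gene and was not taken from these libraries. These rates therefore check the procedure only and are not the error rates of the calls reported here. Named genes were the 12 most abundant members, up to 5 called members per direction and comparison by smallest p, up to 2 called genes per direction of each other list, and 15 fixed genes, 1 of which is not reported here. Of the 66 members 11 were too low to be tested in any pairwise comparison. Members and lists were chosen with earlier results of these data known. The list of 10 non-polyadenylated RNAs had none of its symbols in the matrix used here. Replicates differed beyond counting noise. Alternatives are in the closing section.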

Additional observations from a re-analysis of the deposited data

Results flagged for a closer look

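The response to lycorine was not the same in both lines, as labelled, for 18 histone genes by the interaction term of edgeR's quasi-likelihood test, over 55 tested. That is 32.7% of them, against 61.7% of all 13995 genes tested. Among the named genes the difference, K562/IM minus K562 on the log2 scale, was -0.51 for H2BC12, 0.63 for H1-2, 0.85 for H3C10, 0.75 for H2BC5, -1.93 for H2BC11, -0.88 for H2AC13, -1.02 for H2AC11, -2.19 for H4C8, 1.45 for H2AC17, 1.64 for H2AC8 and 2.38 for H3C1. The difference of H2AC13 did not pass under 8 alternatives and that of H1-2 under 1. H3C1 stayed under 1 CPM in every library. The part of the erythroid, megakaryocyte, T cell, fibroblast and ABCB1 differences of the labelled libraries in these values was not tested.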

How the results depend on the processing

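Under the alternatives tried, the 5 counts of histone genes stayed within 1.5 times the reported count 66 times and moved further 13 times. Without the fold threshold the counts were 16 for K562+L against K562 (2 with it), 23 for K562/IM against K562 (4), 23 for K562/IM+L against K562/IM (8) and 26 for K562/IM+L against K562 (10). Dividing the counts by 4 gave 5 for K562/IM+L against K562/IM, and upper-quartile scaling, which moved the median of all genes by 0.15 on the log2 scale, gave 16 for K562/IM+L against K562. With 1 library left out the counts ran from 2 to 4, 3 to 6, 5 to 12, 6 to 11 and, for the interaction, 11 to 18. The libraries that moved a count over 1.5 times were K562+L replicate 2 (4), K562/IM replicate 3 and K562/IM+L replicate 1 (5 each, against K562/IM), K562/IM+L replicate 3 (6, against K562), and K562/IM replicates 1 and 3 for the interaction (11 each). Same-numbered libraries did not deviate together (correlations of -0.227 to 0.081). No pairing by number was seen, though such correlations cannot show that same-numbered libraries were handled apart. With the replicate block the counts were 2, 5, 5, 9 and 17. Of 1606 values of named members under alternatives 1523 counted as unchanged, 40 lost a call and 43 gained one. Of the 43 gains, 29 came from dropping the fold threshold, which can only add calls. No value that had passed an adjusted p under 0.05 changed direction. A value that had not passed counted as unchanged even where its sign changed. The fall of H4C8 in K562/IM+L against K562/IM sat at the fold threshold and lost its call there under DESeq2 (-0.99), RLE (-0.99) and upper-quartile scaling (-0.95) and with counts divided by 4 (-0.99). The calls lost most often besides were those of H4C7 against K562 (under 9 alternatives), H2AC13 in the interaction (8) and H3C1 in K562/IM+L against K562/IM (5). The cause of these changes was not tested. Genes under 1 CPM are limited by depth.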
